A study of Mus musculus with 24 samples.

Results

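The 6 genes described here encode the Id and E proteins that were followed across mouse B-cell leukaemias and a leukaemia cell line: Id1, Id2 and Id3, and Tcf3, Tcf4 and Tcf12. They were chosen by name, with earlier results of these data known, and they are 6 of 17097 genes tested. Id4, a further Id gene with a probe set on the array, was not among them and was counted with other helix-loop-helix genes. The array carried 13 probe sets for them, and each gene was read with the probe set whose values varied most across the arrays, with the groups ignored. E proteins are basic helix-loop-helix transcription factors that bind E-box sequences as dimers and are needed for the B lineage to form and to rearrange its antigen receptor genes. Id proteins have the helix-loop-helix but lack the basic region that touches DNA, so an Id protein paired with an E protein keeps it off the DNA. In mouse lymphocyte precursors the balance of both families is known to set whether the B-cell programme runs, and signals through the pre-B-cell receptor are known to induce Id3.

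The study asked whether C/EBPβ, a basic leucine zipper transcription factor, acts together with loss of the adaptor protein BLNK in leukaemia of B-cell precursors. BKO408 is a single preB-ALL cell line (precursor B-cell acute lymphoblastic leukaemia) that arose in a Blnk knockout mouse, and it was grown in medium with serum and 5 ng/ml IL-7. BKO408 LAP cells, on 4 arrays, had been transduced to express LAP, an activating isoform of C/EBPβ, from a retrovirus and were set against BKO408 cells on 4 arrays, so both groups lack Blnk. The 16 primary tumours were 3 LAP/Blnk preB-ALL from Blnk knockout mice that also carried the Cebpb LAP transgene, 4 LAP preB-ALL and 4 LAP B-ALL from LAP transgenic mice, and 5 Blnk preB-ALL from Blnk knockout mice. The sources used here do not give the promoter of the transgene, mouse strain or age, the tissue and its share of tumour cells, or any control vector in the BKO408 cells. Whether replicates came from separate cultures or animals is not stated in the labels, and p-values then measure the spread among these arrays, which may be technical.

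Every value below is a deposited log ratio, read as log2, of a probe set to its median over the 8 cell-line arrays or, separately, over the 16 tumours. A value of 0 is therefore the middle of its own set, levels cannot be compared between genes or between cells and tumours, and neither expression nor its absence can be read from a value. The number of arrays limits the precision. Within groups, the median gene had an SD of 0.05 in BKO408 LAP and 0.06 in BKO408 cells, and of 0.16 to 0.24 in the tumour groups. On the Cebpb probe set of the widest spread, the LAP/Blnk preB-ALL lay between -0.03 and 0.51, the LAP preB-ALL between -1.41 and 0.19, the LAP B-ALL between -3.11 and 0.90, and the Blnk preB-ALL between -4.50 and -1.94. The LAP B-ALL at -3.11 was the tumour labelled LAP B-ALL 4, which lay inside the range of the Blnk preB-ALL and against its label. Some results that rest on the LAP B-ALL are given with and without it, and others with it only. The median differences of marker lists and the correlations over the 16 tumours include it. The same probe set read -0.01 to 0.24 in BKO408 LAP cells and -0.14 to 0.01 in BKO408 cells, ranges that overlap, and the other 2 Cebpb probe sets did not separate the LAP groups from the rest. The Blnk probe set read 0.42 to 1.23 in LAP/Blnk preB-ALL, -0.06 to 1.45 in LAP preB-ALL, -0.53 to 0.93 in LAP B-ALL and -0.68 to 0.94 in Blnk preB-ALL, so it did not set the knockout groups below the others and the knockout labels were not borne out on it. The sources used here do not give whether it lies in the deleted part of the gene. Erythroid markers stood apart in 4 tumours, LAP B-ALL 1, 2 and 3 and LAP preB-ALL 4, whose medians over 5 measured markers were 5.32 to 6.54, while no other tumour exceeded 0.77.

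Promoters of 4 of the 6 genes were read from RefSeq sequence tables of the assembly GRCm38.p6, and those of Id1 and Tcf4 were not used. The promoters of Id3 and Id2 are shown because Id3 carried the differences between tumour groups and Id2 varied widely inside them. Each runs 5′ to 3′ over the 250 bases before the annotated start, and capitals mark an E-box, searched as CANCTG and, for the other strand, CAGNTG. Id3 is on chromosome 4, at chr4:136143572-136143821 on the plus strand, and Id2 on chromosome 12, at chr12:25096093-25096342 on the minus strand.
Id3: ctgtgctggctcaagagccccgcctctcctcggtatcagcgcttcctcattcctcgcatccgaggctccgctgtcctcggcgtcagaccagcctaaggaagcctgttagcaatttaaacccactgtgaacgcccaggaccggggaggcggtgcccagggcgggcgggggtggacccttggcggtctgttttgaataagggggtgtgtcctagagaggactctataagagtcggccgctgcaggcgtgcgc
Id2: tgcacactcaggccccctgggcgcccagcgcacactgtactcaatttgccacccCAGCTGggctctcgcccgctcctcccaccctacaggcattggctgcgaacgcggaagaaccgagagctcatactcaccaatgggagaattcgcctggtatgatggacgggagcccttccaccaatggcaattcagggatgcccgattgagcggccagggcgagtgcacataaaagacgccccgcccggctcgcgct
The Id2 stretch held 1 E-box, starting at position -196 from the start, and the Id3 stretch held none. A C/EBP motif, TTGCNNAA or TTNNGCAA on the other strand, was in neither stretch. Over 32851 promoter stretches of this length, 44.8% held an E-box by these letters and 9.56% a C/EBP motif, counting both strands. The Tcf3 stretch held neither, and of 3 annotated Tcf12 starts 1 had an E-box and another 1 a C/EBP motif. A match is a match of letters only.

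In BKO408 cells, Id3 was lower with LAP, as was Tcf3, and the other 4 genes did not pass the test. Id3 read -0.27, -0.28, -0.29 and -0.21 in BKO408 LAP arrays 1 to 4, against 0.29, 0.23, 0.21 and 0.30 in BKO408 arrays 1 to 4. All 4 LAP arrays lay below all 4 control arrays, with a gap wider than the spread of either group. The difference was -0.52 ± 0.03 (SE, n = 4 each), which is 1.43-fold lower, with a 95% interval of -0.59 to -0.45 and a limma adjusted p of 4.78e-06. An exact two-sided permutation test over the arrays gave p = 0.0286, the smallest that 4 against 4 arrays allow. By size of p, Id3 ranked 142 of 17097 genes in this comparison.

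Tcf3, the E protein gene known to be needed at the start of B-cell development, read -0.14, -0.14, -0.07 and -0.15 in BKO408 LAP cells, against 0.27, 0.07, 0.10 and 0.08 in BKO408 cells. The groups did not overlap, and BKO408 array 1 stood above its group. The difference was -0.26 ± 0.05 (SE, n = 4 each), 1.19-fold lower, with a limma adjusted p of 0.00356 and an exact permutation p of 0.0286. All 3 Tcf3 probe sets fell, by 0.19, 0.26 and 0.22, with limma adjusted p of 0.00108, 0.00403 and 0.00304 over all 28898 probe sets with a gene symbol.

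Tcf4, whose protein is known in the mouse as a factor of B cells and of plasmacytoid dendritic cells, read -0.02, 0.09, -0.07 and -0.02 in BKO408 LAP cells, against -0.07, 0.24, 0.21 and 0.02 in BKO408 cells. These groups overlapped, with a difference of -0.10 ± 0.07 (SE) and a limma adjusted p of 0.355. The call depended on the probe set: another of the 3 Tcf4 probe sets fell by 0.14 ± 0.02 with a limma adjusted p of 0.00248, and the third read -0.06 ± 0.09 with an adjusted p of 0.700. Tcf12, which encodes the E protein HEB, differed by -0.04 ± 0.03 (limma adjusted p = 0.382, n = 4 each).

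Neither Id1 nor Id2 separated the cell groups. Id1 read 0.03, -0.01, 0.04 and -0.08 in BKO408 LAP cells, against 0.01, 0.05, -0.05 and -0.03 in BKO408 cells. Id2 read 0.04, -0.02, -0.03 and 0.02 in BKO408 LAP cells, against -0.06, -0.14, 0.06 and 0.03 in BKO408 cells. Both pairs of ranges overlapped, and the 95% intervals of the difference were -0.08 to 0.08 for Id1 and -0.07 to 0.13 for Id2.

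With LAP in BKO408 cells, then, 2 of 6 genes passed the threshold, both lower, where 22.3% of all genes tested did in either direction and 11.8% as lower. Both called genes were also the ones whose groups did not overlap, against 26.8% of all genes. The median difference of the 6 genes was -0.07, and that of all genes -0.01. Of 8 measured B-lineage marker genes, 1 rose and 3 fell with LAP, and of 10 monocyte markers, 3 rose and 1 fell: Ccr2, a chemokine receptor gene, rose by 2.25, Lyz2, a lysozyme gene, by 1.53 and Fcgr1, an Fc receptor gene, by 0.41, and Ctss fell by 0.20. How these changes relate to the Id3 and Tcf3 differences in this single cell line was not tested. When the cell-line arrays were fitted together with the tumours, whose spread is wider, the standard error of Id3 became 0.36 and 0 of 6 genes passed. In that fit 0.123% of all genes passed.

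**Figure D1:**
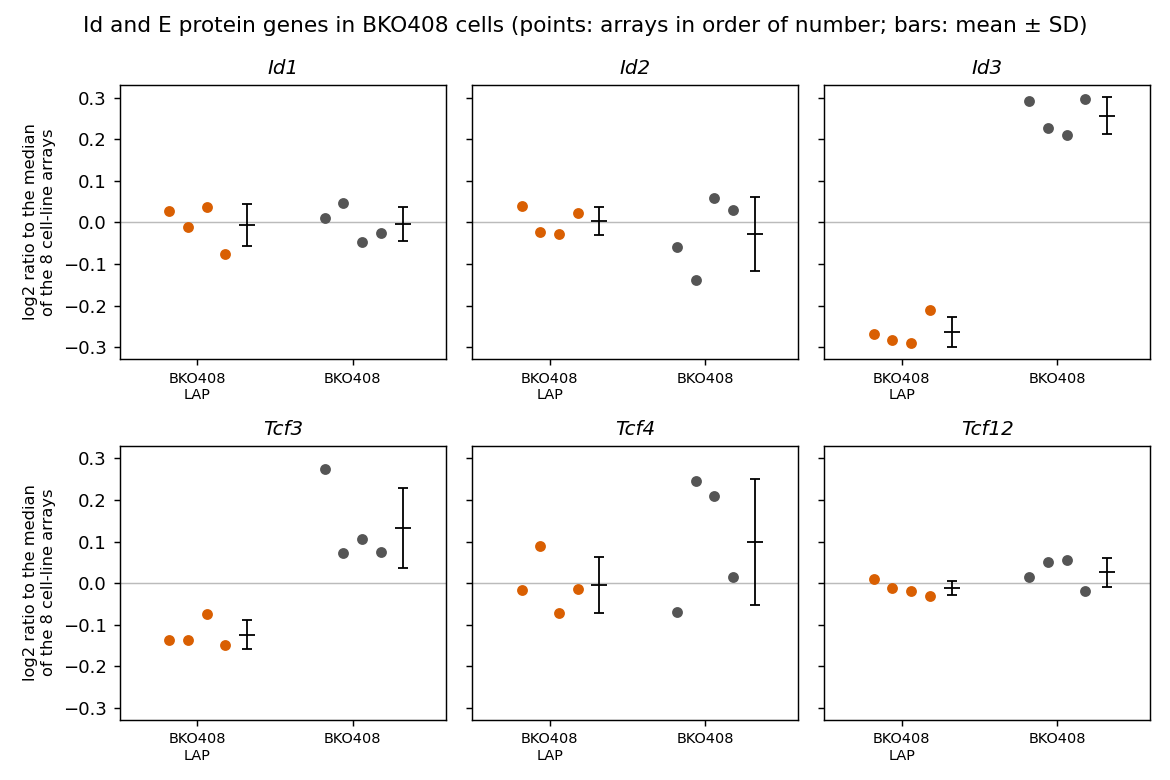
Log2 ratio of each gene to its median over the 8 cell-line arrays, in BKO408 LAP and BKO408 cells; points are arrays in order of number and bars the mean ± SD. The 4 BKO408 LAP arrays of Id3 lie between -0.29 and -0.21 and the 4 BKO408 arrays between 0.21 and 0.30, Tcf3 does not overlap either, and the groups of the other 4 genes overlap.

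Among the tumours, the LAP preB-ALL had the lowest Id3 of all. Id3 read -2.13, -3.36, -2.14 and -1.05 in LAP preB-ALL 1 to 4, against 0.01, 1.25, 1.05, -0.11 and 0.80 in Blnk preB-ALL 1 to 5. All 4 LAP preB-ALL lay below all 5 Blnk preB-ALL. The difference was -2.77 ± 0.41 (SE, n = 4 and 5), 6.83-fold lower, with a 95% interval of -3.65 to -1.90. The limma adjusted p was 0.0398, and the exact permutation p of 0.00794 is the smallest that 4 against 5 tumours allow. Id3 ranked 3 of 17097 genes by p in this comparison, in which 1 of 6 members passed where 0.0819% of all genes did, 14 in all, and 0.076% as lower.

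The margin of this call was small. Leaving out 1 tumour kept the difference between -3.15 and -2.37, but Id3 missed the threshold without Blnk preB-ALL 2, 3 or 5 or without LAP preB-ALL 1, 2 or 3, with limma adjusted p of 0.0502 to 0.0932. It also missed it with the mean of all probe sets of each gene (0.0528), with probe sets chosen by name (0.0551), with quantile normalisation (0.0941) and with both groups fitted alone (0.116). In none of the fits in which Id3 missed it did more than 0.0702% of all genes pass.

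LAP/Blnk preB-ALL had higher Id3 than LAP preB-ALL. Id3 read 0.43, 0.41 and -0.01 in LAP/Blnk preB-ALL 1 to 3, so that all 3 lay above the highest LAP preB-ALL, at -1.05. The difference was 2.45 ± 0.46 (SE, n = 3 and 4), 5.45-fold higher, with a 95% interval of 1.45 to 3.44, a limma adjusted p of 0.0196 and an exact permutation p of 0.0571. In all, 1 of 6 genes passed in this comparison, where 2.37% of all genes did and 1.59% as higher. Without LAP/Blnk preB-ALL 1, 2 or 3 the limma adjusted p was 0.0700, 0.0650 and 0.0573, and with these groups fitted alone it was 0.0940. At most 0.784% of all genes passed in those fits.

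The LAP B-ALL, from mice of the same labelled genotype as the LAP preB-ALL, read -0.16, 0.11 and -0.50 for Id3 in tumours 1 to 3 and 0.60 in the tumour labelled LAP B-ALL 4. Here too all 4 lay above all 4 LAP preB-ALL. Groups that did not overlap, in either direction, were found for 1 of 6 members and 5.21% of all genes. The difference was 2.18 ± 0.43 (SE, n = 4 each), with a 95% interval of 1.26 to 3.10 and an exact permutation p of 0.0286, the smallest possible. Its limma adjusted p was 0.276, and it ranked 10 of 17097 genes. In this comparison limma called 0 of 17097 genes (0%) and therefore 0 of 6, while 1886 genes (11%) had an unadjusted p under 0.05, Id3 and Tcf3 among them. Without LAP preB-ALL 4 the difference of Id3 was 2.56 and its limma adjusted p 0.0132, in a fit in which 1.7% of all genes passed, and without the tumour labelled LAP B-ALL 4 they were 1.99 and 0.162.

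Ordered by group mean, Id3 was lowest in LAP preB-ALL at -2.17 ± 0.95 (SD, n = 4), followed by LAP B-ALL at 0.01 ± 0.47 (SD, n = 4), LAP/Blnk preB-ALL at 0.28 ± 0.25 (SD, n = 3) and Blnk preB-ALL at 0.60 ± 0.61 (SD, n = 5). The last 3 overlapped one another. LAP B-ALL minus Blnk preB-ALL was -0.59 ± 0.41 (SE, limma adjusted p = 0.436), LAP B-ALL minus LAP/Blnk preB-ALL was -0.26 ± 0.46 (0.799), and LAP/Blnk preB-ALL minus Blnk preB-ALL was -0.32 ± 0.44 (1.00). The lowest Id3 among the 12 tumours outside the LAP preB-ALL was -0.50. These tumour comparisons share samples, so the Id3 differences that involve LAP preB-ALL rest on the same 4 tumours.

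Marker genes of the B lineage followed Id3 over the 16 tumours, with r = 0.602 (permutation p adjusted over 54 relations 0.0456) and rho = 0.562 (adjusted permutation p = 0.0738). With group means removed r was -0.138, and without LAP preB-ALL 1 and 4, the farthest in the marker median, 0.512. The median over 8 measured markers of 10 was -0.78, -0.12, -0.73 and -0.87 in LAP preB-ALL 1 to 4, against -0.11 to 0.34 in the Blnk preB-ALL. LAP preB-ALL 2 had the lowest Id3 of all tumours, -3.36, at a B-lineage median of -0.12. The 4 tumours with high erythroid markers included LAP preB-ALL 4, which had the highest Id3 of its group. Without those 4 tumours the Id3 difference was -3.15 for LAP preB-ALL minus Blnk preB-ALL (limma adjusted p = 0.0268). For LAP/Blnk preB-ALL minus LAP preB-ALL it was 2.82 (0.0251). Of the 4 only LAP preB-ALL 4 belongs to a group compared there. Leaving out the highest Id3 of the lower group must widen both differences, so the part of erythroid cells was not tested by it. The part of the B-lineage markers in the result was not tested, and in bulk tissue fewer cells of a type and less RNA per cell cannot be told apart.

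**Figure D2:**
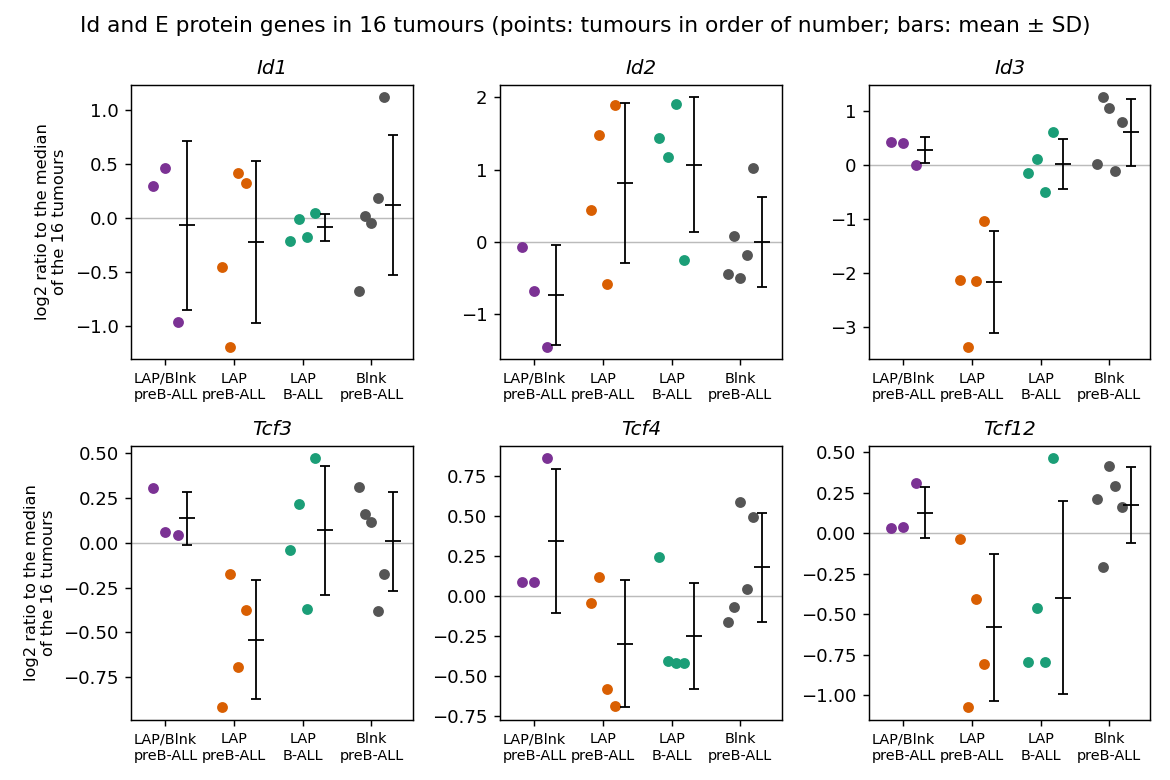
Log2 ratio of each gene to its median over the 16 tumours, by tumour group; points are tumours in order of number and bars the mean ± SD, with a vertical scale of its own for each gene. For Id3 the 4 LAP preB-ALL lie between -3.36 and -1.05 and every other tumour at -0.50 or above, while for Id1, Id2 and Tcf4 the groups overlap.

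Tcf3 ran lower in LAP preB-ALL by value, without passing the test. It read -0.92, -0.18, -0.69 and -0.37 in LAP preB-ALL 1 to 4, against 0.31, 0.16, 0.12, -0.38 and -0.17 in the Blnk preB-ALL, a difference of -0.55 ± 0.19 (SE, limma adjusted p = 0.253). The LAP/Blnk preB-ALL, at 0.31, 0.06 and 0.04, lay above all LAP preB-ALL, with a difference of 0.68 ± 0.22 (limma adjusted p = 0.128). LAP B-ALL, at -0.04, 0.22 and -0.37 in tumours 1 to 3 and 0.47 in the tumour labelled LAP B-ALL 4, differed from LAP preB-ALL by 0.61 ± 0.20 (limma adjusted p = 0.360). The other 2 Tcf3 probe sets gave -0.64 and -0.65 for LAP preB-ALL minus Blnk preB-ALL, neither past the threshold.

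Tcf12 read -0.04, -1.07, -0.41 and -0.80 in LAP preB-ALL 1 to 4, against 0.21, -0.21, 0.42, 0.29 and 0.16 in Blnk preB-ALL 1 to 5. Only LAP preB-ALL 1 reached into the range of the Blnk preB-ALL, and the difference was -0.76 ± 0.26 (SE, limma adjusted p = 0.242). LAP/Blnk preB-ALL, at 0.04, 0.04 and 0.31, lay above every LAP preB-ALL, with a difference of 0.71 ± 0.29 (limma adjusted p = 0.226). Groups that did not overlap were therefore seen for Id3, Tcf3 and Tcf12 in LAP/Blnk preB-ALL against LAP preB-ALL, 3 of 6 genes where 17.3% of all genes were so. Against Blnk preB-ALL this held for Id3 alone, 1 of 6, where 4.59% of all genes were so.

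In LAP B-ALL, Tcf12 read -0.79, -0.46 and -0.80 in tumours 1 to 3 and 0.46 in the tumour labelled LAP B-ALL 4, the highest of all 16. Id2 followed the opposite order, at 1.44, 1.17 and 1.91 in LAP B-ALL 1 to 3 and -0.25 in the tumour labelled LAP B-ALL 4. One tumour thus stood on the other side of 0 from the rest of its group for both genes. LAP B-ALL minus LAP/Blnk preB-ALL was 1.81 ± 0.62 for Id2 (SE, limma adjusted p = 0.108) and -0.52 ± 0.29 for Tcf12 (0.317), and limma called 0 of 6 genes where 3.52% of all genes passed. At an unadjusted p under 0.05 there were 2 of 6, Id2 and Tcf4, against 22% of all genes, and 0 of 6 had groups that did not overlap, against 22.2%. Without the tumour labelled LAP B-ALL 4 the differences were 2.25 for Id2 (limma adjusted p = 0.0280) and -0.81 for Tcf12 (0.0398), so both passed, in a fit in which 11.6% of all genes did. LAP B-ALL minus Blnk preB-ALL was 1.08 ± 0.54 for Id2 (limma adjusted p = 0.270) and -0.57 ± 0.26 for Tcf12 (0.221), with 0 of 6 called by limma and 1.45% of all genes. At an unadjusted p under 0.05 there was 1 of 6, Tcf12, against 21.2% of all genes, and 0 of 6 did not overlap, against 8.52%. There Tcf12 passed without the tumour labelled LAP B-ALL 4, at -0.86 (limma adjusted p = 0.0219), where 10.7% of all genes did. Without LAP B-ALL 1 to 3 and LAP preB-ALL 4, the tumours of high erythroid markers, the LAP B-ALL are that 1 tumour. Its differences from Blnk preB-ALL then had the opposite sign to those of the whole group, -0.24 for Id2 and 0.29 for Tcf12, as had that of Tcf12 from LAP/Blnk preB-ALL, 0.34. They are values of a single tumour, of which no test is given.

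Id2, an Id gene also used by T, NK, innate lymphoid and myeloid cells, varied widely within groups. It read -0.07, -0.69 and -1.46 in LAP/Blnk preB-ALL, 0.44, 1.48, -0.58 and 1.90 in LAP preB-ALL 1 to 4, and -0.45, 0.07, -0.50, -0.19 and 1.02 in Blnk preB-ALL 1 to 5. LAP/Blnk preB-ALL held the lowest value of all, no group was uniform, and LAP/Blnk preB-ALL minus LAP preB-ALL was -1.55 ± 0.62 (SE, limma adjusted p = 0.208).

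Id1, an Id gene known for its role in endothelium and in haematopoietic progenitors, read 0.29, 0.45 and -0.97 in LAP/Blnk preB-ALL, -0.45, -1.20, 0.41 and 0.32 in LAP preB-ALL, -0.21 to 0.04 in the 4 LAP B-ALL, and -0.68, 0.01, -0.05, 0.18 and 1.11 in Blnk preB-ALL. All groups overlapped, and LAP preB-ALL minus Blnk preB-ALL was -0.35 ± 0.39 (SE, limma adjusted p = 0.725). Tcf4 read 0.08, 0.09 and 0.86 in LAP/Blnk preB-ALL, and -0.04, 0.12, -0.59 and -0.69 in LAP preB-ALL. It read 0.25, -0.41 and -0.42 in LAP B-ALL 1 to 3, -0.42 in the tumour labelled LAP B-ALL 4, and -0.16, -0.07, 0.59, 0.04 and 0.49 in Blnk preB-ALL. These groups overlapped as well, with Tcf4 differences of 0.64 ± 0.27 for LAP/Blnk preB-ALL minus LAP preB-ALL (SE, limma adjusted p = 0.234) and -0.60 ± 0.27 for LAP B-ALL minus LAP/Blnk preB-ALL (0.217).

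The comparison that adds LAP to Blnk loss in tumours, LAP/Blnk preB-ALL against Blnk preB-ALL, called 0 of 6 genes by limma, where 0.0175% of all genes passed and 989 (5.78%) had an unadjusted p under 0.05, none of the 6 among them. The member differences ran between -0.73 for Id2 and 0.17 for Tcf4, and no member had groups that did not overlap (0 of 6, where 5.36% of all genes were so). Intervals were wide: the 95% interval was -1.28 to 0.63 for Id3 and -0.32 to 0.58 for Tcf3, and each contains the difference seen with LAP in BKO408 cells. The difference between the LAP effects in tumours and in cells was tested in 1 model, with a shared variance although the tumours spread more widely. There limma called 0 of 6 genes where 1.05% of all genes passed. At an unadjusted p under 0.05 there was 1 of 6, against 13% of all genes. The difference was 0.20 ± 0.35 for Id3 (SE, limma adjusted p = 0.875) and 0.38 ± 0.18 for Tcf3 (0.373, with an unadjusted limma p of 0.0465).

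**Figure D3:**
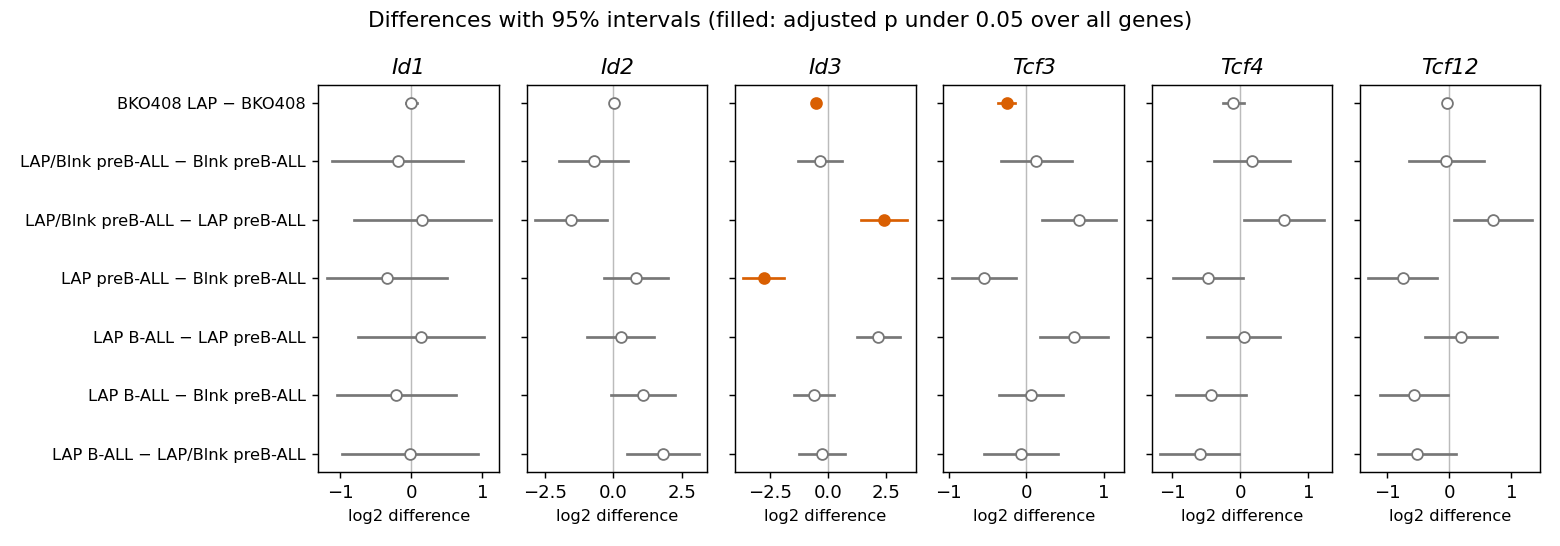
Log2 difference of each gene in 7 comparisons, first-named group minus the other, with its 95% interval; filled points have a limma adjusted p under 0.05 over all genes. Filled points stand at Id3 and Tcf3 for LAP in BKO408 cells (-0.52 and -0.26) and at Id3 for LAP/Blnk preB-ALL minus LAP preB-ALL (2.45) and LAP preB-ALL minus Blnk preB-ALL (-2.77).

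Over the 16 tumours, 2 of the 15 pairs of these genes varied together past the threshold. Id2 and Tcf12 ran in opposite directions, with Pearson r = -0.788 (permutation p adjusted over 15 pairs 0.0069) and Spearman rho = -0.756 (adjusted permutation p = 0.0165). Without the 2 tumours farthest from the median of Id2, r was -0.704, and with group means removed it was -0.734, a value whose permutation p within groups was 0.193 after adjustment. Of the 6 tumours with the highest Id2, 5 were among the 6 with the lowest Tcf12.

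Id3 and Tcf3 ran in the same direction, with r = 0.668 (adjusted permutation p = 0.0364) and rho = 0.721 (adjusted permutation p = 0.0184), and r = 0.776 without LAP preB-ALL 2 and 3, the tumours farthest from the median of Id3. With group means removed r was 0.208, so little of that relation was found within groups. Id3 and Tcf12 had r = 0.597, with an adjusted permutation p of 0.0670. None of the other 12 pairs passed.

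**Figure D4:**
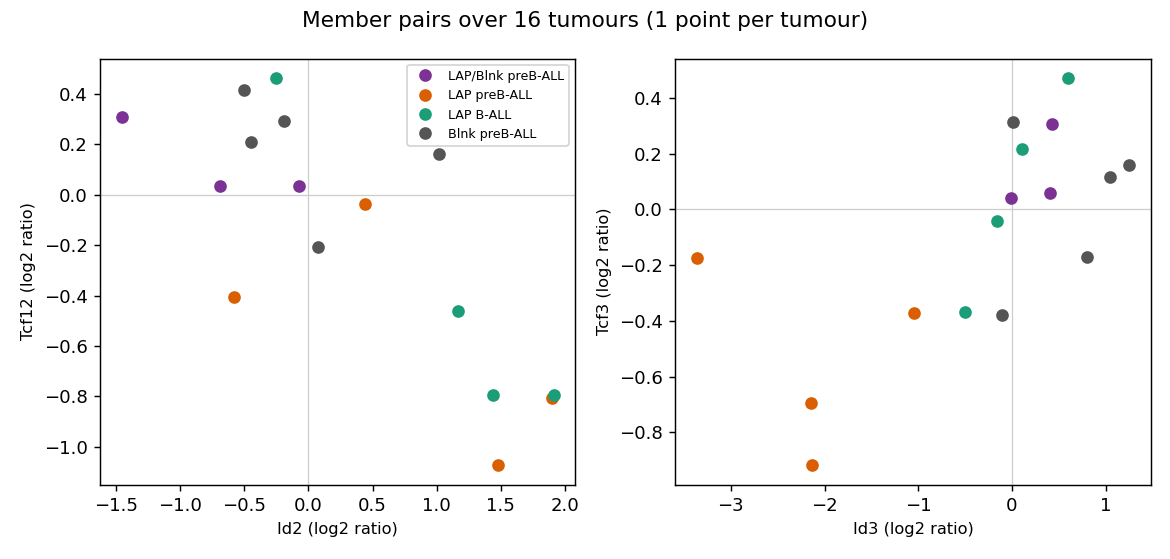
Id2 against Tcf12 and Id3 against Tcf3, log2 ratios to the median of the 16 tumours, 1 point per tumour coloured by group. Tcf12 is lowest (-1.07) in LAP preB-ALL 2, whose Id2 is 1.48, and the 4 LAP preB-ALL stand apart at the low end of Id3.

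Markers of other cell types moved with Id2. By the median of 10 monocyte and macrophage markers the tumours fell into 2 clusters, 6 tumours at 0.70 to 1.51 and 10 at -0.73 to 0.19. The 6 were LAP B-ALL 1, 2 and 3, LAP preB-ALL 2 and 4 and Blnk preB-ALL 5, and they were also the 6 tumours with the highest Id2 and with the highest medians of 8 T-cell markers, 0.82 to 2.26. Over all 16 tumours Id2 had r = 0.906 with the monocyte and 0.900 with the T-cell median. With the dendritic and NK medians r was 0.856 and 0.729. The permutation p adjusted over 54 relations was at most 0.00409 for these 4. With group means removed r was 0.882, 0.885, 0.832 and 0.734 in the same order. In the 12 tumours of low erythroid markers r was 0.811, 0.882, 0.767 and 0.689. These values span both clusters, as do all relations over the 16 tumours given here. Within the 6, Id2 and the monocyte median had r = 0.607 (exact permutation p adjusted over 14 relations 0.585, rho = 0.543), and within the 10 r = 0.442 (adjusted permutation p = 0.585, rho = 0.418). Id2 and the T-cell median had r = 0.430 within the 6 (adjusted exact permutation p = 0.728) and r = 0.613 within the 10 (adjusted permutation p = 0.464). Id2 and Tcf12 themselves had r = -0.700 within the 6 (adjusted exact permutation p = 0.525) and r = -0.263 within the 10 (adjusted permutation p = 0.728). The 6 tumours are also those of the highest Id2, so the split narrows the range of Id2, and a missed threshold with 6 and 10 tumours does not show that the relation is absent. Dendritic and NK markers, 5 of 8 and 8 of 8 measured, had r with Id2 of 0.045 and 0.365 within the 6, and of 0.599 and 0.159 within the 10, none past the threshold. The clusters were drawn after seeing the data. The part of these cell types in the Id2 and Tcf12 values was not tested.

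Id1 followed the median of 10 stroma and endothelium markers, r = 0.690 over 16 tumours (permutation p adjusted over 54 relations 0.0185, rho = 0.565 with an adjusted p of 0.0738). That relation rested on Blnk preB-ALL 5, whose stromal median was 1.37 and Id1 1.11, and LAP preB-ALL 2, with -0.90 and -1.20: without them r was 0.282. Tcf3 followed the B-lineage markers with r = 0.779 (adjusted permutation p = 0.0040) and rho = 0.574 (adjusted p = 0.0730), and r = 0.706 without the 2 farthest tumours.

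The median of a list of genes known as targets of E proteins followed Tcf12. This list had 20 genes, of which 16 were measured, among them the recombinase genes Rag1 and Rag2, Dntt, which encodes terminal transferase, and Ebf1 and Pax5, which encode transcription factors of the B lineage. It also held Cdkn1a, Gfi1 and Notch1, and its genes were not split by whether E proteins raise or lower them. The median of the list and Tcf12 had r = 0.828 (permutation p adjusted over 54 relations 0.00175) and rho = 0.844 (adjusted permutation p = 0.00216) over the 16 tumours, with r = 0.838 without the 2 farthest tumours and 0.727 with group means removed. The list median and Id2 had r = -0.743 (adjusted permutation p = 0.00729) and rho = -0.712 (adjusted permutation p = 0.0180), and in the 12 tumours of low erythroid markers r was -0.376 for Id2 and 0.734 for Tcf12. Rag1 read -3.71, -6.24, -0.41 and -5.66 in LAP preB-ALL 1 to 4, and -6.13, -6.62 and -6.11 in LAP B-ALL 1 to 3 but 2.00 in the tumour labelled LAP B-ALL 4, against -0.08 to 1.27 in Blnk preB-ALL. For LAP preB-ALL minus Blnk preB-ALL the median difference of the list was -0.94, with 14 of 16 genes negative and 0 past the threshold, where the median over all genes was 0.00. Rag1 and other genes of the list are B-lineage markers too. Tcf12 also ran against the T-cell (r = -0.736), monocyte (-0.709), erythroid (-0.648) and dendritic (-0.637) medians over the 16 tumours. With the stroma and endothelium median it had r = 0.589, and the adjusted permutation p of these relations was at most 0.0487. By rank the erythroid relation did not pass, with rho = -0.482 (adjusted permutation p = 0.143). In the 12 tumours of low erythroid markers r was -0.544 for T-cell, -0.424 for monocyte and -0.320 for dendritic medians. There it was 0.101 for the erythroid and 0.450 for the stroma and endothelium median. The list was not set against Tcf12 or Id2 within the monocyte clusters. The part of these cell types in the relation was not tested.

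**Figure D5:**
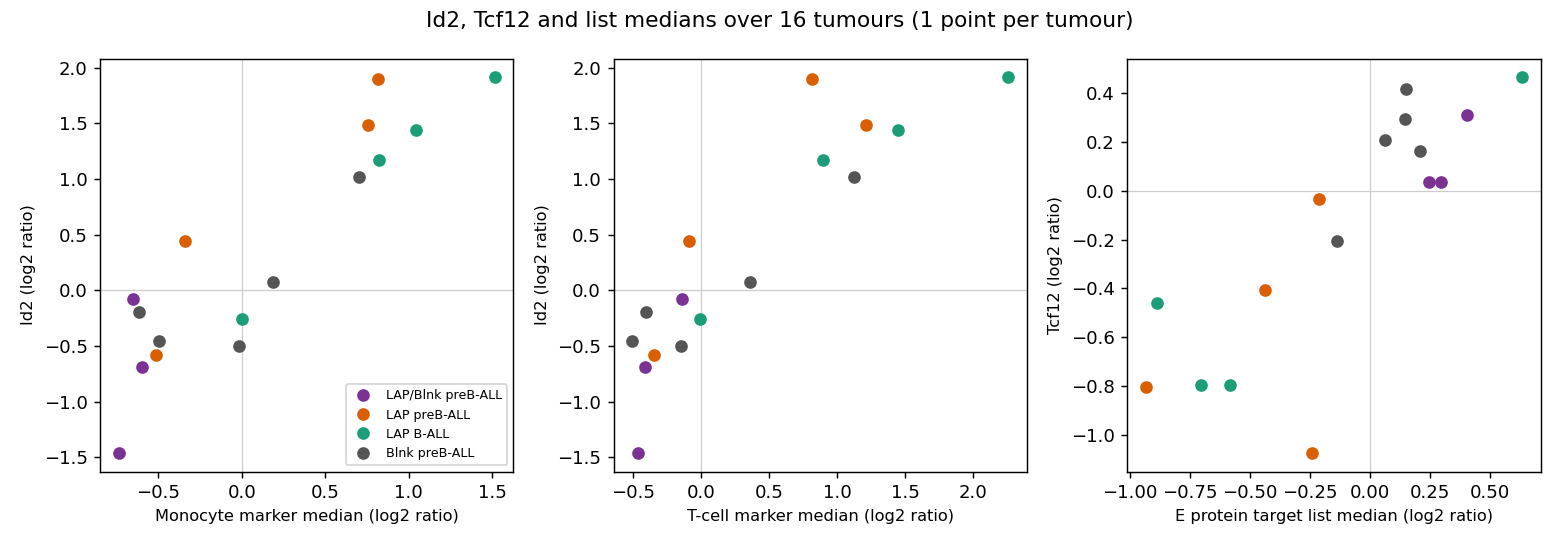
Id2 against the medians of the monocyte and T-cell marker lists, and Tcf12 against the median of the E protein target list, log2 ratios, 1 point per tumour coloured by group. Id2 and the marker medians fall into 6 tumours at the upper right and 10 at the lower left, and Tcf12 is lowest where the E protein target median is below 0.

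With LAP in BKO408 cells, 9 of the 16 measured E protein target genes passed the threshold, 3 higher and 6 lower, where 22.3% of all genes passed. Dntt fell by 1.91 ± 0.03, Irf4, a transcription factor gene of pre-B and plasma cells, by 1.41 ± 0.03, and Rag1 by 1.32 ± 0.03 (SE, limma adjusted p of at most 3.58e-09, n = 4 each). Cdkn1a, which encodes the cell cycle inhibitor p21, rose by 1.44 ± 0.08 (SE, limma adjusted p = 1.85e-06). For 2 of the 16 measured genes of the list the LAP effect itself differed, where 1.05% of all genes passed that test. In tumours alone, LAP/Blnk preB-ALL minus Blnk preB-ALL, limma called 0 of the 16, where 0.0175% of all genes passed. The value in tumours (LAP/Blnk preB-ALL minus Blnk preB-ALL) minus that in cells was 1.67 ± 0.34 for Irf4 (limma adjusted p = 0.0326). It was -2.52 ± 0.33 for Gfi1 (0.00246), a repressor gene that rose by 1.27 ± 0.03 with LAP in BKO408 cells. Both calls rest on a variance shared by cells and tumours, although the tumours spread more widely.

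Genes known to control the Id genes or to carry the signals that do so passed in 7 of 21 cases in the cells, 2 higher and 5 lower, where 22.3% of all genes passed. Egr1, the transcription factor gene known to lie upstream of Id3 in lymphocyte precursors, rose by 0.84 ± 0.03 (SE, limma adjusted p = 1.41e-07), while Id3 itself fell. Egr1 read 0.45, 0.40, 0.38 and 0.47 in BKO408 LAP cells, against -0.46, -0.42, -0.38 and -0.41 in BKO408 cells, with no overlap. Tgfbr1, a TGF-β receptor gene, fell by 0.35 ± 0.03, Bmpr2, a BMP receptor gene, fell by 0.17 ± 0.03, and Smad7, an inhibitor of both pathways, rose by 0.30 ± 0.05 (SE, limma adjusted p of at most 0.00230). In the 6 comparisons between tumour groups limma called 0 of these 21 genes, where 0% to 3.52% of all genes passed.

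Among the other partners and regulators of E proteins, 3 genes rose and 6 fell in the cells. Among 14 measured helix-loop-helix genes outside the 6, Lyl1 rose by 0.14 and Hes1 fell by 0.29. Of 12 measured cofactors, Lmo4 rose by 0.15 and Ssbp3, Kat2b and Lmo2 fell by 0.27, 0.14 and 0.11. Of 10 genes for the turnover of Id or E proteins, Cdc20, an activator of the anaphase-promoting complex, rose by 0.21, and Asb2 and Skp2, both of ubiquitin ligases, fell by 0.58 and 0.26. The limma adjusted p of those named was at most 0.0433, and 22.3% of all genes passed in this comparison.

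In tumours, Usp1, which encodes a deubiquitinase known to stabilise Id proteins in human osteosarcoma cells, was lower in LAP B-ALL. It read -0.66, -0.45 and -0.58 in LAP B-ALL 1 to 3 and -0.60 in the tumour labelled LAP B-ALL 4, against 0.20, 0.09 and 0.29 in LAP/Blnk preB-ALL and 0.50, 0.31, 0.14, 0.43 and -0.24 in Blnk preB-ALL. All LAP B-ALL lay below both other groups. They also lay below LAP preB-ALL 1 to 4, at -0.07, -0.04, 0.04 and -0.23, a comparison in which limma called 0% of all genes. The difference of Usp1 was -0.77 ± 0.14 from LAP/Blnk preB-ALL (SE, limma adjusted p = 0.0120) and -0.80 ± 0.13 from Blnk preB-ALL (0.00935). Cdc20 also fell in both, by 0.77 and 0.64, and Skp2 fell by 1.04 against Blnk preB-ALL. Of the 10 turnover genes 2 passed against LAP/Blnk preB-ALL and 3 against Blnk preB-ALL, where 3.52% and 1.45% of all genes did. Crebbp, a histone acetyltransferase gene whose product binds E proteins, was higher in LAP/Blnk preB-ALL than in LAP preB-ALL by 1.08 ± 0.25 (SE, limma adjusted p = 0.0421) and lower in LAP B-ALL than in LAP/Blnk preB-ALL, at -0.98 ± 0.25 (0.0489). In the same LAP B-ALL comparisons, with LAP/Blnk preB-ALL and with Blnk preB-ALL, the median difference was 5.04 and 4.51 for erythroid markers, 2.24 and 1.94 for granulocyte markers, and 1.78 and 1.13 for T-cell markers, whose part in these differences was not tested. Without the tumour labelled LAP B-ALL 4 the LAP B-ALL calls of these 4 genes held, with limma adjusted p of 0.00743 to 0.0226.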

How the data were processed

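Mouse RNA was hybridised to 24 Affymetrix arrays. The deposited values are log2 ratios by reading, as the base is unstated. Per the submitters' processing notes MAS5 was used; the sources used here give neither its version nor the scaling before centring. The median of every probe set in the deposited table was 0 over the 8 cell-line arrays and over the 16 tumours. Of 45141 probe sets, 28898 had 1 gene symbol, 551 several and 15692 none in the platform annotation of 2016. Each of 17097 genes took its probe set of the largest SD.

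Comparisons used limma (version 3.58.1, R 4.3.3, two-sided, Benjamini-Hochberg over all genes, threshold 0.05), tested on simulated data. The cell-line arrays and the tumours were fitted apart, except for the difference of LAP effects, which used a shared variance. Exact permutation tests compared single genes, and correlations used 100000 permutations unless called exact. Alternatives were other probe set choices, variance settings, normalisations, filters and fits, and leaving out each replicate. The members and lists were chosen with earlier results of these data known. Genes named were all members, the 3 genes nearest to each by correlation, and up to 4 genes a list and comparison with the largest change past the threshold. Marker lists covered B-lineage, granulocyte, monocyte, T, NK, dendritic, stromal and erythroid cells. The tumour values of Rag1 and the tumours named singly were chosen after they were seen.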

Additional observations from a re-analysis of the deposited data

Results flagged for a closer look

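Of 30 sets of values, each 1 of the 6 genes in 1 group of 4 or 5 arrays, 3 held an array that lay far from the rest by Dixon's ratio of gap to range, where chance flags about 1 group in 20. Tcf3 in BKO408 array 1 was 0.27, above the other 3 arrays of BKO408 cells. Tcf3 in BKO408 LAP array 3 was -0.073, above the other 3 arrays of LAP cells. Tcf4 in LAP B-ALL 1 was 0.25, while the other 3 tumours of that group read between -0.42 and -0.41.

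The effect of LAP differed between tumours (LAP/Blnk preB-ALL minus Blnk preB-ALL) and BKO408 cells for 3 genes of the lists, by limma's test of the difference itself. They were 2 of 16 measured E protein targets and 1 of 10 monocyte markers, where 1.05% of all genes passed. That test used a variance shared by cells and tumours, although the tumours spread more widely. The tumour effect minus the cell effect was 1.67 for Irf4 (adjusted p = 0.0326) and -2.52 for Gfi1 (adjusted p = 0.00246), both of the E protein target list, and -1.865 for Lyz2 (adjusted p = 0.00906), a lysozyme gene of the monocyte marker list.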

How the results depend on the processing

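Across 1022 member differences under alternatives, 932 kept their direction and side of the threshold, 18 fell short of it, 14 passed it and 0 called ones changed sign. A further 58 that passed in neither fit changed sign, with sizes of at most 0.70. Of 171 counts of called members, 145 stayed within 1.5 times the main count. With all 24 arrays in 1 fit the counts were 0 for LAP in BKO408 cells (0.123% of all genes), 2 for LAP/Blnk preB-ALL minus LAP preB-ALL (10.3%), 1 for LAP B-ALL minus LAP preB-ALL (1.16%) and 1 for LAP B-ALL minus LAP/Blnk preB-ALL (16%). With only the 2 groups compared they were 0 for LAP/Blnk preB-ALL minus LAP preB-ALL (0.292% of all genes) and 0 for LAP preB-ALL minus Blnk preB-ALL (0.0292%). The last was also 0 with the mean of all probe sets (0% of all genes), with probe sets chosen by name (0.00585%) and with quantile normalisation (0.0117%). Array weights gave 2 for LAP B-ALL minus Blnk preB-ALL (21.2% of all genes) and 2 for LAP B-ALL minus LAP/Blnk preB-ALL (23.8%). Without 1 replicate each, counts were 0 to 1 for LAP/Blnk preB-ALL minus LAP preB-ALL, for LAP preB-ALL minus Blnk preB-ALL, for LAP B-ALL minus LAP preB-ALL and for LAP B-ALL minus Blnk preB-ALL, and 0 to 2 for LAP B-ALL minus LAP/Blnk preB-ALL. Where the count of LAP/Blnk preB-ALL minus LAP preB-ALL fell to 0, 0.497% to 0.784% of all genes passed. For LAP preB-ALL minus Blnk preB-ALL 0% to 0.0702% did. Where a LAP B-ALL count rose, 1.7% passed against LAP preB-ALL, 10.7% against Blnk preB-ALL and 11.6% against LAP/Blnk preB-ALL. The pairs of members past the threshold became 0 with group means removed. Apart from fewer or other samples in a fit, the cause was not tested.

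Nothing in the labels says that replicate numbers pair the arrays. The correlations of same-numbered deviations were 0.13, 0.26, -0.03 and 0.09 in the cells, with 1 of 4 best with its own number, and -0.64 to 0.38 over 21 tumour pairs, with 6 best with their own; in 0 of 6 tumour comparisons were all pairs over 0.1. With the replicate number as a block the count was 2 in the cells, where 20% of all genes passed. It was 0 for LAP/Blnk preB-ALL minus LAP preB-ALL (Id3 2.82, limma adjusted p = 0.273). For LAP preB-ALL minus Blnk preB-ALL it was also 0 (Id3 -2.72, 0.376), and 0% of all genes passed in either fit. The count was 2 for LAP B-ALL minus LAP/Blnk preB-ALL (15.7% of all genes), and the block changed no other call. It was not run for the difference of LAP effects. Leaving out the tumours of high erythroid markers was chosen after seeing the data, as were the monocyte clusters and the test of list genes without LAP B-ALL 4. Relative values keep no signal over background, so dim probe sets could not be set aside.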

Other observations

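The 3 genes whose values followed each member most closely over the 16 tumours are given as a description, with Pearson r and n = 16. Id2 ran with Clic4 (0.96), a chloride channel gene, Bcl2a1a (0.95), a survival gene of the Bcl2 family, and Iigp1 (0.95), an interferon-induced GTPase gene. Iigp1 read 3.15 in LAP preB-ALL 4 and 2.92 and 3.38 in LAP B-ALL 1 and 3, tumours whose Id2 was 1.90, 1.44 and 1.91. Tcf12 ran with Tmc7 (0.96), Sec63 (0.95), a gene of protein import into the endoplasmic reticulum, and Smad7 (0.95), an inhibitor of TGF-β and BMP signals. Tmc7 read -3.27, -2.40 and -3.32 in LAP B-ALL 1 to 3 and 1.37 in the tumour labelled LAP B-ALL 4.

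Id1 ran with Sox18, Cd151 and Ptprb (0.88 each), and Sox18 and Ptprb are known as endothelial genes. Both were highest in Blnk preB-ALL 5, at 1.42 and 1.78. Id3 ran less closely with any gene, the nearest being Abcd3 (0.84), a peroxisomal transporter gene, Gmeb2 (0.83) and Itga4 (0.82), an integrin gene of lymphocyte homing. Itga4 read -0.18, -2.59, -1.47 and -0.02 in LAP preB-ALL 1 to 4. Tcf3 ran with Uimc1 (0.90), a DNA damage response gene, A930005H10Rik (0.84) and Zfp770 (0.83). Tcf4 ran with Hspa13 (0.87), a chaperone gene, Cox7a2l (0.84), a mitochondrial gene, and Snhg8 (0.82), a noncoding RNA gene.

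Granulocyte markers had medians of 3.39 in LAP preB-ALL 4, 2.15 to 2.24 in LAP B-ALL 1 to 3, 3.02 in the tumour labelled LAP B-ALL 4 and 3.44 in Blnk preB-ALL 5. Over the 16 tumours this median and Id2 had r = 0.621 (permutation p adjusted over 54 relations 0.0456) and rho = 0.582 (adjusted permutation p = 0.0712). In the 12 tumours of low erythroid markers r was 0.323. The tumour labelled LAP B-ALL 4 had an Id2 of -0.25, and LAP/Blnk preB-ALL 1 had -0.07 at a granulocyte median of 1.41. A high granulocyte median thus did not always go with a high Id2.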
